A study of Mus musculus with 3 samples.

Results

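*Cd93*, *Myct1* and 8 further genes known from the endothelium were followed in cultured mouse colon carcinoma cells. The set of 10 genes was *Cd93*, *Myct1*, *Pecam1*, *Kdr*, *Tie1*, *Tek*, *Cdh5*, *Esam*, *Emcn* and *Erg*, out of 22911 named genes on the array. *Cd93* and *Myct1* were selected on their high signal in LuM1 on these same arrays, and the other members for what they are known to mark, with earlier results of these arrays in view. The differences between the lines that follow are therefore descriptions. The cells were Colon26, a murine colon adenocarcinoma line from a female BALB/c mouse, and its sublines LuM1, which is highly metastatic, and NM11, which metastasizes little. All 3 lines were grown in RPMI1640 with 10% serum for 3 days and received no other treatment, and 0.1 µg of total RNA of each was labelled with Cy3 and hybridized to 1 single-colour array on a common slide. With 1 array per line there is no replicate spread and no test, and a line cannot be told apart from its culture or its array.

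The endothelium is the cell layer that lines blood vessels. Its cells are held together by junction proteins such as VE-cadherin (*Cdh5*), *Pecam1* and *Esam*. They respond to vascular endothelial growth factors through receptors such as *Kdr*, and to angiopoietins through *Tek*, which pairs with *Tie1*. Transcription factors of the ETS family, *Erg* among them, bind a GGAA core sequence and maintain expression of these genes. *Cd93* encodes a transmembrane protein with a C-type lectin domain that is found on endothelial and myeloid cells. *Myct1* encodes a small membrane protein that is expressed in endothelial cells and in haematopoietic stem cells.

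Values are spot intensities scaled so that the 75th percentile of every array was 585.1, and for the main genes the error that the scanner software assigned to the spot is printed after the value. It was about 10.0% for a bright spot. That error covers the reading of 1 spot and neither the culture nor the labelling. A probe counted as detected where the software called it well above background. The lowest such scaled signal was 26.4 in Colon26, 20.1 in LuM1 and 19.6 in NM11. Each of the 10 genes had 1 probe. Signals of different probes have no common scale, so each gene was compared with itself across the lines. Where the summed signal of a marker list is given, its brightest probes set it, and it does not stand for the list as a whole. In bulk RNA, fewer cells that express a gene and less RNA per cell cannot be told apart.

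Of the 10 genes, 3 were detected in each line, and they were the same ones, *Cd93*, *Myct1* and *Pecam1*. Among all named genes, 56.9% were detected in Colon26, 59.9% in LuM1 and 59.1% in NM11. The other 7, *Kdr*, *Tie1*, *Tek*, *Cdh5*, *Esam*, *Emcn* and *Erg*, were not well above background on any array. Most of the 10 genes were thus not detected in these cultures, and the name endothelial is used here only for where the genes are known from.

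*Cd93* had its highest signal in LuM1 by a wide margin. Its probe, A_51_P238722, gave 342 ± 34.6 in Colon26, 15316 ± 1532 in LuM1 and 70.3 ± 8.11 in NM11. The order of the lines was LuM1, Colon26 and then NM11, and each step was larger than the scanner error. The signal in LuM1 was 44.8-fold that in Colon26, or 5.49 on the log2 scale with an error of 0.21, and 218.0-fold that in NM11, or 7.77 with an error of 0.22. Colon26 in turn was 4.87-fold above NM11, a log2 ratio of NM11 over Colon26 of -2.28. With a background correction that adds an offset of 50 to every signal (normexp), the log2 ratio of LuM1 over NM11 was 6.78 and that of NM11 over Colon26 was -1.56.

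*Myct1* was also far higher in LuM1, but differed little between the other two lines. Its probe, A_52_P13389, gave 31.5 ± 6.72 in Colon26, 1748 ± 175 in LuM1 and 27.1 ± 5.15 in NM11. The values of Colon26 and NM11 lay just above the lowest detected signal of their arrays and differed from each other by less than the scanner error, with a log2 ratio of NM11 over Colon26 of -0.22 and an error of 0.41. LuM1 was 55.5-fold above Colon26 and 64.5-fold above NM11, log2 ratios of 5.79 and 6.01 with errors of 0.34 and 0.31. Both folds rest on dim denominators. With the same background correction and offset, they were 3.98 and 4.08 on the log2 scale.

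*Pecam1*, which encodes the adhesion molecule CD31 of endothelial junctions, platelets and leukocytes, was dim in every line. Its probe, A_55_P2087087, gave 51.3 ± 7.62 in Colon26, 53.0 ± 6.84 in LuM1 and 78.3 ± 8.83 in NM11. LuM1 and Colon26 differed by less than the scanner error, with a log2 ratio of 0.05 and an error of 0.28. NM11 was the highest by a small margin, with a log2 ratio of LuM1 over NM11 of -0.56 and an error of 0.25. Scaling the arrays to the housekeeping gene *Hprt* turned that last ratio to 0.025, so the direction between LuM1 and NM11 depends on the scaling.

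**Figure D1:**
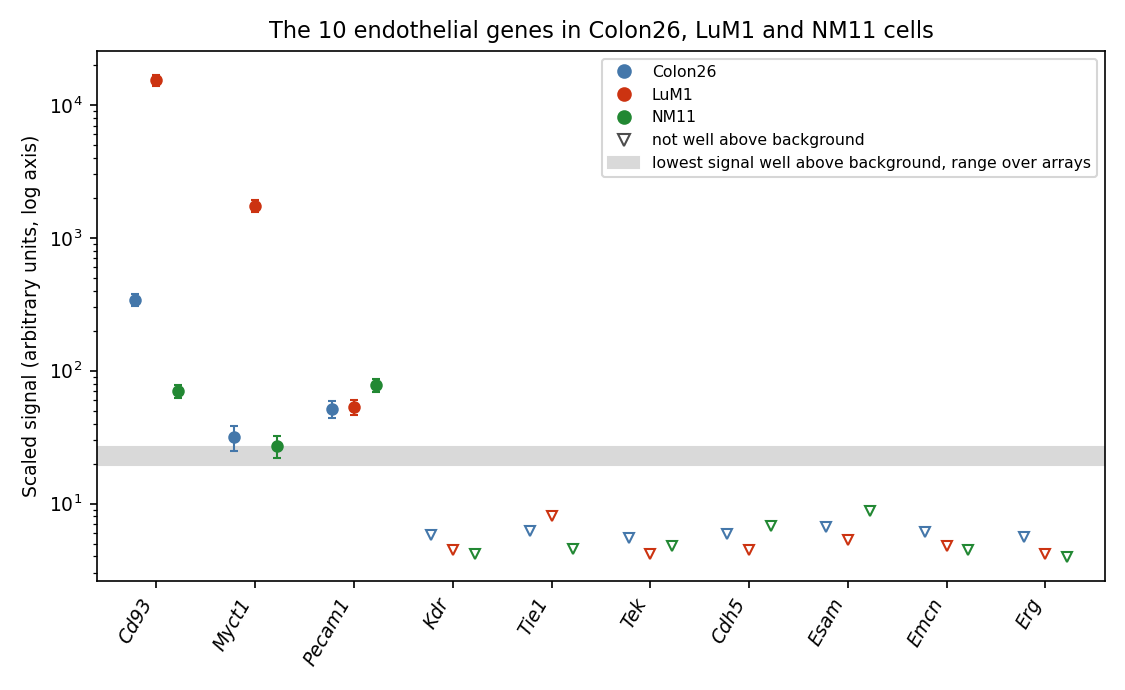
Scaled signal (arbitrary units, log axis) of the 10 genes in Colon26, LuM1 and NM11, 1 array each. Filled points are signals well above background with the scanner error as bars, open triangles are signals that were not, and the grey band spans the lowest well-above-background signal of the arrays, from 19.6 to 26.4. The LuM1 points of *Cd93* (15316) and *Myct1* (1748) stand far above those of the other lines, while *Pecam1* lies between 51.3 and 78.3 and the remaining 7 genes lie under the band.

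The growth factor and angiopoietin receptors among the 10 genes were not detected. *Kdr*, the main signalling receptor for vascular endothelial growth factor A, was at 5.76 in Colon26, 4.45 in LuM1 and 4.16 in NM11. *Tek*, the angiopoietin receptor, was at 5.47, 4.16 and 4.75 in the same order. *Tie1*, its partner receptor, was at 6.19, 8.06 and 4.57. All of these signals were under the lowest detected signal of their array, and no fold was computed from them.

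The junction and surface genes behaved likewise. *Cdh5*, the cadherin of endothelial junctions, was at 5.90 in Colon26, 4.49 in LuM1 and 6.74 in NM11. *Esam*, an adhesion molecule of tight junctions, was at 6.67, 5.31 and 8.74 in that order. *Emcn*, a sialomucin of venous and capillary endothelium, was at 6.09, 4.76 and 4.47. The transcription factor gene *Erg* was at 5.56, 4.19 and 3.99. None of these was well above background. A looser rule, which asks only that a spot exceed its local background significantly, admitted *Tie1* and *Esam* in LuM1 and *Tek*, *Cdh5* and *Esam* in NM11, and brought the number detected to 5 in LuM1 and 6 in NM11.

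In the comparison of LuM1 with Colon26, 2 of the 10 genes passed 2-fold upward and 0 downward, where 8.08% and 7.28% of all named genes were. Against NM11, 2 were higher and 0 lower, beside 6.97% and 5.34% of all named genes. The genes higher than in both other lines were *Cd93* and *Myct1*, 2 of 10 beside 4.73% of all named genes, and 0 of 10 were lower than in both beside 2.59%. These counts are fixed in part by how *Cd93* and *Myct1* were selected, and nothing is read from them. Between NM11 and Colon26, 0 genes were at least 2-fold higher in NM11, beside 5.03% of all named genes, and 1, *Cd93*, was lower, beside 4.76%.

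The promoter window of *Myct1* is shown because *Myct1* was the 1 detected gene of the set with a window in the RefSeq table used. That of *Tek* is shown beside it because it holds the same short motif while *Tek* was not detected. Windows run from 250 bases before to 50 bases after the start site in build GRCm38.p6, and were found for 6 of the 10 genes. Capitals mark matches on either strand. The letters searched were CCGGAA, typical of binding sites of ETS factors, and AGATAA, typical of those of the GATA factor family. For SOX factors the letters were AACAAT, for proteins that bind an E-box they were CACGTG, and for the AP-1 complex they were TGACTCA. None of these motifs overlaps another. The *Myct1* window lies on the plus strand at chr10:5593478-5593777 and the *Tek* window on the plus strand at chr4:94739039-94739338.
Myct1: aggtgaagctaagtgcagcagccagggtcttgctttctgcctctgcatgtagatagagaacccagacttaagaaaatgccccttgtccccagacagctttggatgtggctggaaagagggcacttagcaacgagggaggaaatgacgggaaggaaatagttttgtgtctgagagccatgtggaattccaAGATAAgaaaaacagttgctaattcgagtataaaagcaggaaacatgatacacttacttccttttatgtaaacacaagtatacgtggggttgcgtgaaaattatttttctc
Tek: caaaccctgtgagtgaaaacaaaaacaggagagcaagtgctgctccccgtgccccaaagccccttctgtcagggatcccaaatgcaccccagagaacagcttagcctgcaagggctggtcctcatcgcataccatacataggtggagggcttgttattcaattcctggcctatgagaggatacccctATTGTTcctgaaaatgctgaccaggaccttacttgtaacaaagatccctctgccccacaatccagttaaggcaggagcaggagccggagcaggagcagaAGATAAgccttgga

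The *Myct1* window held 1 match, AGATAA at position -61 from the start site, and none of the other motifs. These letters were present in 11.2% of 32851 promoter windows of the same length. The *Tek* window held AGATAA at position 36 and, on the minus strand, AACAAT at position -63, which was present in 10.7% of windows. Of the other windows, that of *Kdr* held 1 match to CCGGAA, found in 14.9% of all windows, and that of *Emcn* 1 match to AACAAT. Among the windows of *Erg*, 1 held AGATAA and AACAAT, and *Tie1* had no match. The letters CACGTG were in 7.15% and TGACTCA in 5.20% of all windows and in none of those of the 6 genes. The GGAA core alone was not searched, so the absence of CCGGAA from a window does not mean the absence of that core. A match of letters is a description and was not tied to the signals.

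Genes that neighbour *Cd93* and *Myct1* in the annotation, a set chosen after their values were seen, did not share their large differences. *Thbd*, which encodes thrombomodulin of the same lectin family and lies next to *Cd93*, was at 2882 in Colon26, 3721 in LuM1 and 3730 in NM11. The log2 ratios of LuM1 over Colon26 and NM11 were -0.41 and -0.12 for *Nxt1*, the neighbour of *Cd93* on its other side. *Syne1*, which lies next to *Myct1* and encodes the nuclear envelope protein nesprin-1, was at 523 in Colon26, 972 in LuM1 and 485 in NM11, log2 ratios of 0.894 and 1.005. *Vip*, on the other side of *Myct1*, was detected in NM11 with a signal of 38.5 and in neither other line.

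The closest pattern to that of *Cd93* was sought among the 12249 genes detected in all lines, as the distance between the pairs of log2 ratios of LuM1 over Colon26 and over NM11. The 5 nearest were *Gngt2*, *Selp*, *Myct1*, *Notch4* and *Mapt*, at distances of 1.46, 1.59, 1.78, 2.09 and 2.12. *Gngt2*, which encodes a gamma subunit of G proteins, was at 196 in Colon26, 6472 in LuM1 and 78.0 in NM11, and its second probe at 140, 5019 and 51.6. *Notch4*, a Notch receptor known from endothelium, was at 208, 3808 and 54.4, and its second probe was detected in LuM1 alone, at 25.6. *Mapt*, the gene of the microtubule protein tau, was at 54.1, 7925 and 86.6. For *Cd93*, *Selp*, *Gngt2* and *Notch4* the order of the lines was LuM1, Colon26 and NM11, whereas in *Mapt* NM11 exceeded Colon26. *Myct1* had the order of *Cd93*, but its Colon26 and NM11 signals differed by less than the scanner error. The genes were picked by these same ratios, so a shared order is fixed in part by the selection and nothing is read from it.

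The 5 genes nearest to *Myct1* were *Rerg*, *Gngt2*, *Mical1*, *Plxna4* and *Urah*, at distances of 0.727, 0.829, 1.001, 1.002 and 1.038. *Rerg*, which encodes a small GTPase, was at 32.3 in Colon26, 1893 in LuM1 and 48.4 in NM11. *Plxna4*, a semaphorin receptor gene, was at 34.5, 1104 and 26.1. *Mical1*, which encodes an actin-oxidizing enzyme, was at 87.8, 2693 and 59.9, but its other probes gave 171 and 301 in LuM1 beside 31.2 and 209 in Colon26. For *Urah*, an enzyme of urate breakdown, 1 probe gave 41.2, 3976 and 97.6 and the other was not detected. Each pattern rests on 3 arrays, so the distances rank genes and carry no error from replicates.

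**Figure D2:**
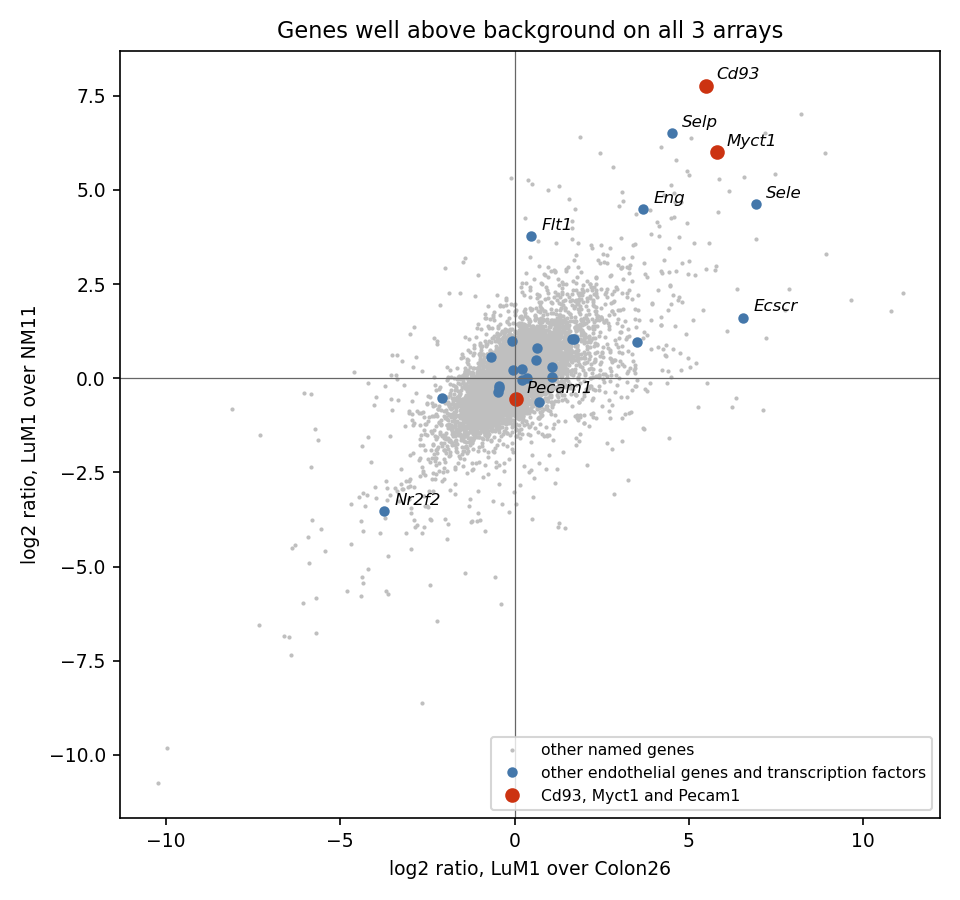
Log2 ratio of LuM1 over NM11 (vertical axis) against that of LuM1 over Colon26 (horizontal axis) for the 12249 genes detected on all 3 arrays, 1 point a gene. The axes share the LuM1 array, so points tend to lie along the diagonal. *Cd93* (5.49, 7.77) and *Myct1* (5.79, 6.01) lie at the upper right edge near *Selp*, and *Pecam1* (0.05, -0.56) lies within the bulk.

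Beyond the 10 genes, 35 other genes known from endothelium were examined. This list and those that follow were chosen with earlier results of these arrays known, so their counts and medians are descriptions. Of the 35, 17 were detected in Colon26, 21 in LuM1 and 19 in NM11, beside 56.9%, 59.9% and 59.1% of all named genes. In no line were 13 of them detected. Compared with Colon26, 12 were at least 2-fold higher and 0 lower in LuM1, beside 8.08% and 7.28% of all named genes. In NM11, 8 were higher and 3 lower than in Colon26, beside 5.03% and 4.76%. Against both other lines, 8 of the 35 were at least 2-fold up in LuM1 and 0 were down, beside 4.73% and 2.59% of all named genes. They were *Ecscr*, *Eng*, *Icam2*, *Plvap*, *Ramp2*, *Sele*, *Selp* and *Shank3*. Their log2 ratios of LuM1 over Colon26 had a median of 0.67 over the 16 genes measured in both, beside -0.13 over 12397 of all named genes. Over NM11 it was 0.79 for 19 genes, beside -0.11 for 12851. The 13 that were not detected included *Vwf*, *Cldn5*, *Flt4*, *Robo4* and *Ptprb*.

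Adhesion receptors were among the genes of this list that were higher in LuM1. *Sele*, which encodes E-selectin of activated endothelium, was at 34.6 ± 6.33 in Colon26, 4198 ± 420 in LuM1 and 171 ± 17.5 in NM11. It was 121-fold higher in LuM1 than in Colon26 and 24.6-fold higher than in NM11. *Selp*, which encodes P-selectin of endothelium and platelets, was at 101 ± 11.6, 2293 ± 229 and 25.1 ± 4.93, folds of 22.7 and 91.3. Its other 2 probes gave 618 and 890 in LuM1 and were lower in the other lines as well. *Icam2*, a leukocyte ligand on endothelium, was at 8116 ± 812 in LuM1 and 506 ± 50.8 in NM11 and was not detected in Colon26. It was 16.0-fold higher in LuM1 than in NM11 and at least 307-fold higher than in Colon26, a bound taken against the lowest detected signal there.

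Genes of growth factor signalling and of capillary structure followed. *Eng*, the TGF-beta co-receptor endoglin, was at 133 ± 14.6 in Colon26, 1720 ± 172 in LuM1 and 76.2 ± 8.77 in NM11, folds of 12.9 and 22.6. *Ecscr*, which encodes an endothelial surface regulator, was at 32.2 ± 6.98, 3022 ± 302 and 989 ± 99.0, and was thus 94.0-fold and 3.06-fold higher in LuM1. *Plvap*, a protein of capillary fenestrae, was not well above background in Colon26 and was at 639 ± 64.0 in LuM1 and 104 ± 11.2 in NM11. LuM1 was at least 23.4-fold above Colon26 for this gene and 6.14-fold above NM11.

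The probes of *Ramp2* and *Shank3* disagreed. *Ramp2*, a co-receptor for adrenomedullin, had 1 probe at 933 ± 93.5 in LuM1 that was not detected in the other lines. Its second probe was at 274 ± 28.1 in Colon26, 123 ± 13.2 in LuM1 and not detected in NM11, so that LuM1 was lower than Colon26 there. *Shank3* was at 354 ± 35.7 in LuM1 by 1 probe, at 25.2 by another and not detected by its last probe, and none of its probes was detected in the other lines. Without *Ramp2* and *Shank3*, the genes of this list that were higher in LuM1 than in both lines number 6.

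Of 21 transcription factor genes known from endothelium, 9 were detected in Colon26, 13 in LuM1 and 11 in NM11. Over all named genes these shares were 56.9%, 59.9% and 59.1%. *Ets1*, *Foxc2*, *Gata2* and *Hhex*, 4 of the 21, exceeded both other lines by at least 2-fold in LuM1, and 1, *Nr2f2*, was lower, beside 4.73% and 2.59% of all named genes. Against Colon26 alone, 5 of the 21 were at least 2-fold higher and 3 lower in LuM1, beside 8.08% and 7.28% of all named genes. Against NM11 alone, 5 were higher and 2 lower, beside 6.97% and 5.34%. *Foxc1*, lower than in Colon26, was at 1136 in Colon26, 267 in LuM1 and 385 in NM11. *Hey1* was detected in NM11 alone, at 422, and *Hey2* in Colon26 alone, at 83.2. The median log2 ratio over Colon26 was -0.47 for the 8 genes measured in both and that over NM11 was -0.12 for 10, beside -0.13 and -0.11 over all named genes. *Fli1*, *Etv2*, *Lyl1*, *Sox18*, *Prox1* and *Mef2c* were detected in no line. The ETS factor genes *Erg*, *Fli1* and *Etv2*, which are known to specify or maintain endothelium, were thus not detected, whereas *Ets1* and *Elk3* were. *Elk3* was at 12109 in Colon26, 8806 in LuM1 and 10080 in NM11.

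*Hhex*, a homeobox factor of early endothelium and liver, was at 1482 ± 148 in LuM1 and 192 ± 19.6 in NM11 and was not detected in Colon26. LuM1 was at least 56.1-fold above Colon26 and 7.74-fold above NM11. *Foxc2*, a factor of vessel and lymphatic development, was at 190 ± 19.6 in LuM1 and detected in neither other line, bounds of at least 7.19-fold and 9.70-fold. The ETS factor *Ets1* was at 1466 ± 147, 4788 ± 479 and 2313 ± 231 in Colon26, LuM1 and NM11. *Gata2*, which encodes a factor that binds GATA sequences, was at 511 ± 51.4, 1607 ± 161 and 774 ± 77.5. Its folds of 3.15 and 2.08, like those of *Ets1* at 3.27 and 2.07, lay close to the limit of 2-fold on the side of NM11. *Nr2f2*, which encodes the venous factor COUP-TFII, was at 3691 ± 369 in Colon26, 275 ± 27.8 in LuM1 and 3188 ± 319 in NM11, 13.4-fold and 11.6-fold lower in LuM1.

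**Figure D3:**
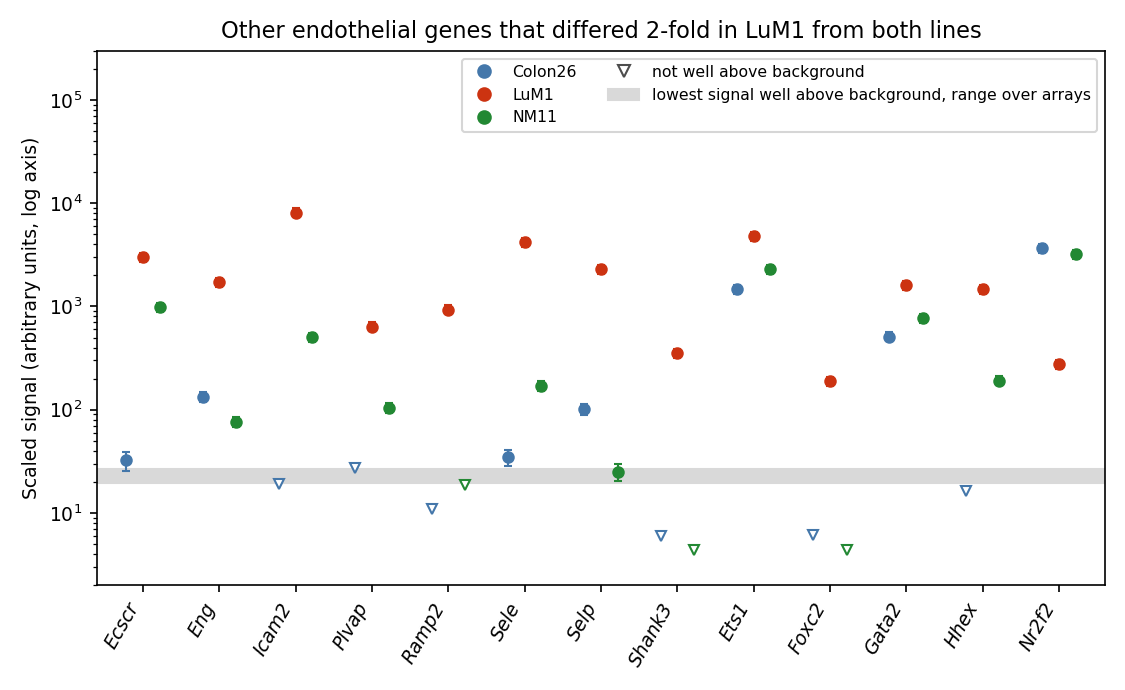
Scaled signal (arbitrary units, log axis) of the 12 other endothelial genes and transcription factors with a LuM1 signal at least 2-fold above both other lines, and of *Nr2f2*, which was lower, 1 array per line. Filled points with scanner error bars are signals well above background, open triangles are signals that were not, and the grey band spans the lowest detected signal of the arrays. *Icam2* reached 8116 in LuM1 beside 506 in NM11, and *Nr2f2* was at 275 in LuM1 beside 3691 and 3188. For *Ramp2* and *Shank3* other probes disagreed.

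Several ligand genes of the vascular endothelial growth factor and angiopoietin families were detected, while *Kdr*, *Tek* and *Tie1* were not. Of 8 ligand genes, 5 were detected in Colon26 and 6 in LuM1 and NM11. Among all named genes, 56.9% were detected in Colon26, 59.9% in LuM1 and 59.1% in NM11. In LuM1, 0 of the 8 were 2-fold higher or lower than in both other lines, beside 4.73% and 2.59% of all named genes. With 8 genes, nothing is read from these counts. *Vegfa*, the ligand of *Kdr*, was at 8509 in Colon26, 3300 in LuM1 and 3058 in NM11 by its brightest probe, a 2.58-fold lower signal in LuM1 than in Colon26. Its other probes gave folds of Colon26 over LuM1 from 0.52 to 1.78, so the probes did not share this difference. *Vegfd*, whose receptors include *Flt4*, was at 477 in Colon26, 1833 in LuM1 and 2685 in NM11, and was 3.84-fold higher in LuM1 than in Colon26. *Pgf*, a ligand of *Flt1*, was at 28.6, 66.5 and 50.9. *Vegfb*, likewise a ligand of *Flt1*, was at 2100, 1374 and 1746.

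*Angpt1*, the activating ligand of *Tek*, was at 59.5 in LuM1 and 37.1 in NM11 and was not detected in Colon26, so that LuM1 was at least 2.25-fold above Colon26. *Angpt2*, the context-dependent ligand of *Tek*, was at 638, 668 and 659 in Colon26, LuM1 and NM11, within the scanner error of each other. *Vegfc* and *Angpt4* were detected in no line. The VEGF receptor gene *Flt1*, unlike *Kdr*, was detected in all lines, at 471 ± 47.5, 648 ± 65.0 and 47.6 ± 6.37. It was 13.6-fold higher in LuM1 than in NM11 and 1.38-fold higher than in Colon26.

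*Cd93* belongs to a small family of C-type lectin proteins with *Cd248*, *Thbd* and *Clec14a*, some of which bind the matrix proteins of *Mmrn2* and *Igfbp7*. Within these 6 genes *Cd93* was the 1 gene whose LuM1 signal was at least 2-fold above both other lines, and 0 were lower. The shares of all named genes were 4.73% and 2.59%. *Cd93* was selected on its high signal in LuM1, so its place in this count was fixed in advance. *Cd248*, also called endosialin, a protein of pericytes and fibroblasts, was at 2754 in Colon26, 3030 in LuM1 and 1826 in NM11. *Mmrn2*, the gene of an endothelial matrix protein, was at 63.9, 99.3 and 57.5. *Igfbp7* was at 27.2 in LuM1, close to the lowest detected signal, and was not detected in the other lines. *Clec14a*, an endothelial receptor, was not detected in any line. The values of *Thbd* are given above with the neighbours of *Cd93*.

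Markers of other cells in which *Cd93* or *Myct1* are known to be expressed were counted on the same arrays. Of 12 blood and myeloid markers, 4 had a LuM1 signal at least 2-fold above both other lines, *Aif1*, *Cd14*, *Cd68* and *Lyz2*, and 0 were lower, beside 4.73% and 2.59% of all named genes. Their summed signal was 7220 in Colon26, 17329 in LuM1 and 6382 in NM11. *Ptprc*, which encodes CD45 of all leukocytes, was not detected in any line, nor were *Adgre1*, *Tyrobp* and *Spi1*. *Cd68*, a lysosomal protein abundant in macrophages, was at 172, 5251 and 299, and *Cd14*, the lipopolysaccharide co-receptor, was at 1153, 4175 and 988. *Aif1* and *Lyz2* were at 110 and 112 in LuM1 and not detected in the other lines. By their brightest probes, other myeloid genes of the list were detected in every line and did not pass 2-fold against both other lines. *Fcer1g* was at 31.3 in Colon26, 69.9 in LuM1 and 37.0 in NM11. It was 2.24-fold higher in LuM1 than in Colon26 and 1.89-fold higher than in NM11. *Csf1r*, the receptor of macrophage colony-stimulating factor, was at 682, 691 and 675. *Itgam*, the integrin CD11b, was at 5027, 6818 and 4251, and *Cd48* was at 116, 80.9 and 93.8. The second probe of *Itgam* disagreed, at 63.4 in Colon26 and 31.0 in NM11 and not detected in LuM1. LuM1 was at least 3.15-fold lower than Colon26 by that probe. The second probe of *Cd48* was detected in no line.

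Of 6 platelet and megakaryocyte markers, *Pf4* and *Ppbp* were higher in LuM1 than in both other lines and 0 were lower, beside 4.73% and 2.59% of all named genes, and *Gp1ba* and *Gp9* were detected in none. *Pf4*, the chemokine platelet factor 4, was at 84791 in LuM1 and not detected in Colon26 or NM11, at least 3211-fold and 4333-fold higher. *Ppbp*, the chemokine known as pro-platelet basic protein, was at 121 in LuM1 and 27.9 in NM11 and was not detected in Colon26. *Pf4* made up most of the summed signal of this list, which was 484 in Colon26, 85474 in LuM1 and 532 in NM11. These blood cell and platelet genes were higher on the same LuM1 array as *Cd93* and *Myct1*, and their part in the signal of *Cd93* and *Myct1* was not tested.

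Of 10 fibroblast and pericyte markers, 7 were detected in each line. Among all named genes, 56.9% were detected in Colon26, 59.9% in LuM1 and 59.1% in NM11. *Dcn* and *Pdgfra* exceeded both other lines by at least 2-fold in LuM1, and *Col1a1*, *Col1a2* and *Cspg4* were lower. These were 2 and 3 of 10, beside 4.73% and 2.59% of all named genes. *Lum* and *Rgs5* were detected in no line. The summed signal of the 10 markers was 79088 in Colon26, 45528 in LuM1 and 115910 in NM11. Most of it came from *Col1a2* in Colon26 and NM11 and from *Dcn* in LuM1. *Dcn*, the gene of the matrix proteoglycan decorin, was at 27503 in LuM1 and 9599 in NM11 and was not detected in Colon26. *Pdgfra*, a growth factor receptor of mesenchymal cells, was at 218, 3965 and 1286 in Colon26, LuM1 and NM11. *Col1a1*, the collagen type I alpha 1 chain, was at 4918, 2247 and 6045. *Col1a2*, which encodes its partner chain, was at 59896, 49.6 and 85275, and *Cspg4*, a pericyte proteoglycan, was at 1678 in Colon26 and 178 in NM11 and not detected in LuM1. Other markers of the list differed less. *Pdgfrb* was at 993 in Colon26, 966 in LuM1 and 947 in NM11. *Des* was at 64.2 in Colon26 and 58.9 in LuM1 and not detected in NM11. By its brightest probe *Acta2* was at 11294, 10708 and 12569, but another probe gave 48.6, 1766 and 1641 and its last probe was detected in no line.

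The label of the lines as colon adenocarcinoma was set against 10 epithelial and colon markers. Of these, 4 were detected in Colon26 and NM11 and 5 in LuM1, beside 56.9%, 59.1% and 59.9% of all named genes. *Krt8* was the 1 gene at least 2-fold higher and *Krt20* the 1 lower in LuM1 than in the others, beside 4.73% and 2.59% of all named genes. Their summed signal was 1255 in Colon26, 509 in LuM1 and 486 in NM11. *Cdh1*, the cadherin of epithelial junctions, *Krt18*, *Krt19*, *Cdx1* and *Vil1* were not detected in any line, and *Epcam* was detected in LuM1 alone, at 28.0. *Krt8*, a keratin of simple epithelia, was at 28.9, 108 and 37.1, and *Krt20*, a keratin of intestinal epithelium, was at 651, 54.5 and 157. *Cdx2*, a transcription factor of intestinal epithelium, was at 443, 232 and 167, and *Cldn7*, a tight junction gene, was at 91.4, 58.1 and 93.6. The list was thus detected in part, with *Krt20* and *Cdx2* making up most of the sum in Colon26 and several defining epithelial genes not detected in any line.

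**Figure D4:**
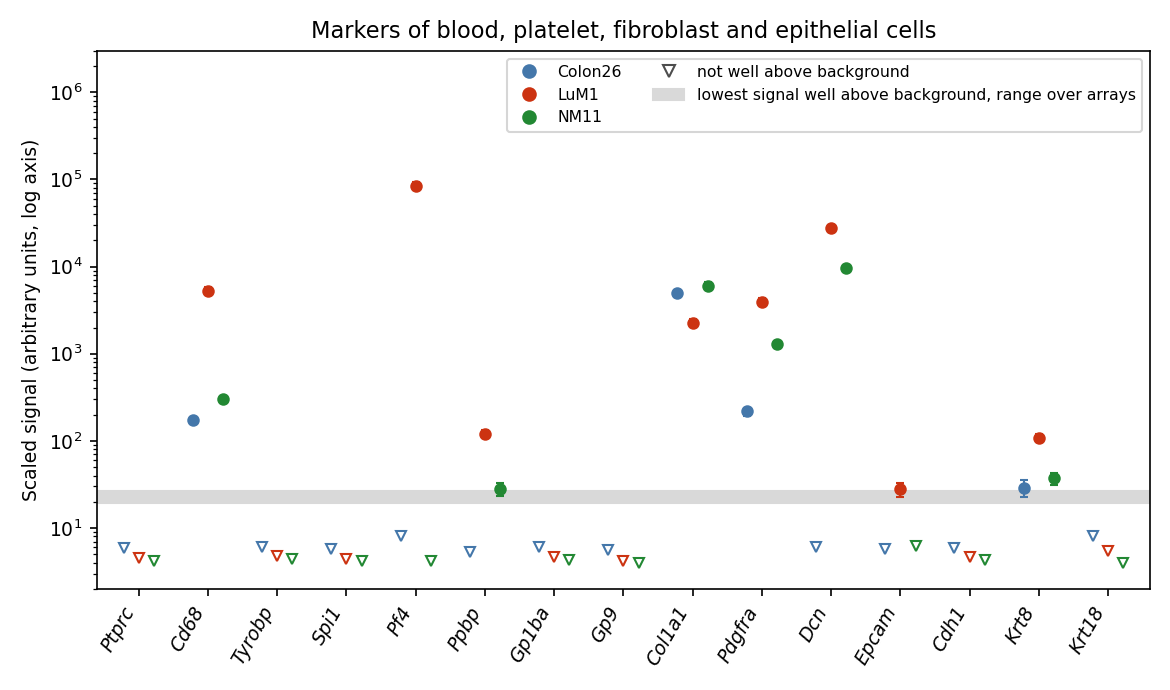
Scaled signal (arbitrary units, log axis) of selected blood, platelet, fibroblast and epithelial markers in Colon26, LuM1 and NM11, 1 array each, with scanner error bars where a signal was well above background and open triangles where it was not. *Ptprc*, *Tyrobp*, *Spi1*, *Gp1ba*, *Gp9*, *Cdh1* and *Krt18* lie under the grey band of lowest detected signals in every line. *Pf4* (84791) and *Cd68* (5251) are highest in LuM1.

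The spots around those of *Cd93* and *Myct1* on the slide were also counted. Within 5 rows and columns of the *Cd93* spot, 4.39% of the spots were well above background in LuM1 alone, beside 3.49% over that array, and 7.02% were so in Colon26 alone, beside 1.89%. Around the *Myct1* spot 7.21% were so in LuM1 alone and 0.90% in Colon26 alone. Among other probes, these percentages for LuM1 were 14.3% around the spot of *Foxc2* and 23.9% around that of the second probe of *Selp*. Around the spot of *Tie1* it was 12.1%. Over the 28 probes of listed genes called higher or lower against both lines, it ran from 0.0% to 16.8%, highest at *Ets1*. For Colon26 alone it ran from 0.0% to 17.1% over these probes, highest at *Gata2*. The part of the surrounding spots in these signals was not tested.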

How the data were processed

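Gene expression was measured in 3 cultures, 1 each of Colon26, LuM1 and NM11, and samples were grouped by cell line from the labels. Per the labels, the authors extracted spot intensity values and quality flags with Agilent Feature Extraction 11.5.1.1, and deposited them without normalization between arrays. The authors also deposited a series table, whose values were those intensities times 1 factor per array (0.654, 0.829 and 0.706), used as an alternative. From the files, the background-subtracted processed signal was averaged over spots of a probe without control and outlier spots (137, 74 and 99 outlier spots in Colon26, LuM1 and NM11), and scaled to the 75th percentile. No spot was saturated (0 on each array). Probes well above background made up 49.9%, 53.8% and 52.5%. With 1 array per line, the number of arrays limits the precision.

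Of 56605 probes, 6 had no usable spot on some array, and 32989 were named by accession through RefSeq (GRCm38.p6), giving 22911 genes. A gene was represented by its probe with the highest mean log2 signal. A probe not well above background on 1 side of a ratio gave a bound, taken against the lowest detected signal of that array or the probe's own signal if larger, and on both sides no ratio. The fold limit was 2, and a gene was called where both its ratios passed it.

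The members and lists were chosen with earlier results of these data known. Named were the members, the 5 genes nearest to *Cd93* and to *Myct1*, all ligand and lectin family genes, genes of other lists at least 2-fold different in LuM1 from both lines, and defining markers. *Flt1*, *Elk3*, *Cdx2*, *Cldn7*, *Csf1r*, *Itgam*, *Cd48* and *Fcer1g* fall outside this rule and were named after their values were seen. *Foxc1*, *Hey1*, *Hey2*, *Acta2*, *Pdgfrb* and *Des* likewise fall outside it and were named after their values were seen. The same holds for *Thbd* as a neighbour, the other neighbours and genes named as not detected. The ratio and call steps were tested on simulated data. Alternatives were no scaling, scaling to the median or to *Hprt*, quantile normalization, the series table, normexp (offset 50, limma 3.58.1), a looser detection rule, no detection filter, other probe choices and a 4-fold limit. Python 3.11.15, pandas 2.3.3, numpy 2.4.6, matplotlib 3.10.9 and R 4.3.3 were used.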

Additional observations from a re-analysis of the deposited data

How the results depend on the processing

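*Cd93* and *Myct1* remained the 2 members whose LuM1 signal exceeded both other lines by the limit, and 0 were lower, under all 11 alternatives, a 4-fold limit among them. Every ratio of these genes kept its sign. Scaling to *Hprt* gave log2 ratios of LuM1 over NM11 of 8.36 for *Cd93*, 6.60 for *Myct1* and 0.025 for *Pecam1*, and of NM11 over Colon26 of -2.77, -0.71 and 0.12. Values of the series table gave 5.93 and 8.18 for *Cd93* over Colon26 and NM11, 6.24 and 6.42 for *Myct1*, and 0.49 and -0.15 for *Pecam1*. Normexp gave 5.22 and 6.78 for *Cd93* and 3.98 and 4.08 for *Myct1*, and NM11 over Colon26 of -1.56 for *Cd93* and 0.26 for *Pecam1*. Quantile normalization gave -0.83 for *Pecam1* in LuM1 over NM11, and its ratio over Colon26 changed sign among settings, from -0.16 to 0.49. Counts of genes higher in LuM1 than in both lines became 1 for ligands under *Hprt* and in the series table, and 2 for the lectin family in the latter. Under normexp they became 2 for blood markers, 1 for platelet and 0 for epithelial markers. Epithelial markers lower than in both became 0 under *Hprt* and under normexp. The looser detection rule gave 5 members in LuM1 and 6 in NM11. The cause was not tested. Fibroblast markers lower in LuM1 than in both lines numbered 2 in place of 3 under *Hprt*, quantile normalization and the series table. The other values moved by at most the scanner error, or by at most 1.5 times for a count.

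Scaling to *Hprt* moved the median of all genes by 0.59 for LuM1 over NM11 and the series table by 0.45 and 0.41. The share of genes that were higher among those differing from both lines was 64.6%, and 84.4% and 86.3% under these settings and 73.7% without scaling. Each member has 1 probe, so there is no value without its spot. No paired analysis was possible because each line has 1 array. Signal over background limits *Myct1* in Colon26 and NM11, *Pecam1* and the undetected members most.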
